A study of Mus musculus and Homo sapiens with 10 samples.

Results

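Cd73 high enterocytes were compared with Cd73 negative enterocytes for where their DNA double-strand breaks lay. Enterocytes are the absorptive cells that line the intestinal villus. Cd73, encoded by Nt5e, is an ectonucleotidase that turns extracellular AMP into adenosine, and its level rises towards the villus tip, so that a sort on it spreads enterocytes along the villus. The comparison holds 4 of the 10 libraries of the series: Cd73 high M1 and M2 against Cd73 negative M1 and M2, all of mouse jejunal enterocytes. The 2 Cd73 mid libraries of the same sort entered the fits and are given as a level between them, and the 4 libraries of TK6, a human lymphoblastoid line, were not used. The labels used here state neither strain, age nor genotype of the mice, nor what M1 and M2 stand for. The p-values below may therefore rest on technical spread between libraries alone. Break ends do not measure expression, so the sort could not be checked against the level of Nt5e.

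In-suspension BLISS blunts the ends of breaks in suspended nuclei, ligates an adapter to them and amplifies the DNA next to it, so that each listed position is a break end. Breaks arise in every cell and collect at open chromatin and at the starts of transcribed genes, where topoisomerases relieve the torsion of transcription. Very long genes and the common fragile sites within them are known as places where replication stress leaves breaks. A library's break ends were summed over protein-coding gene bodies, over gene borders (within 1 kb of either annotated end), over windows within 1 kb of gene starts and of gene ends, and over 100 kb bins of chromosomes 1 to 19 (GRCm38).

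Depth separated the groups. On chromosomes 1 to 19 the negative libraries held 12730960 and 12286024 break ends, the mid libraries 4640765 and 5036730, and the high libraries 1485622 and 1240721. Over 100 kb bins, log2 levels correlated at 0.978 between the negative libraries and at 0.869 between the high libraries. Positions with more than 1 break end held 25.8% and 26.5% of the negative libraries and 6.37% and 6.42% of the high libraries. With every library thinned to 1240721 break ends these shares were 5.30% and 5.92% against 5.58% and 6.42%. Some of the results below were repeated at equal depth or with each position counted once, and those values are given beside them. For results given without such values the part of depth is not shown.

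The promoters of genes that carry the results are shown first, because much of what follows concerns gene starts. Each runs from 250 bases before the start to 50 after it, 5′ to 3′ on the gene's strand, from RefSeq (GRCm38.p6), with every CG dinucleotide in capitals. Nt5e is the sorted marker. Cdk5rap2, a centrosomal protein gene, was the only gene body to pass the test. Hs2st1 (a heparan sulfate sulfotransferase), Sarm1 (an NAD-cleaving enzyme of axon degeneration), Shoc2 (a scaffold of RAS signalling) and Bbip1 (a subunit of the ciliary BBSome) had the start windows that passed it. Oca2, the melanosomal transporter gene, is shown as a promoter with few CG.
Nt5e, chr9:88327359-88327658, plus strand: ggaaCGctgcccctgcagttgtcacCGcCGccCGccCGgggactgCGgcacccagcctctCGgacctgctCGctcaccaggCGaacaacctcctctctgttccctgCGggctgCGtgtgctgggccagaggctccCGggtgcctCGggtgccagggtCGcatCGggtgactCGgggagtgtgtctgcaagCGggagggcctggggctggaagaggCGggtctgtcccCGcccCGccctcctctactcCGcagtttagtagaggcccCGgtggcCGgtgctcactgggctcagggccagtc
Cdk5rap2, chr4:70410386-70410685, minus strand: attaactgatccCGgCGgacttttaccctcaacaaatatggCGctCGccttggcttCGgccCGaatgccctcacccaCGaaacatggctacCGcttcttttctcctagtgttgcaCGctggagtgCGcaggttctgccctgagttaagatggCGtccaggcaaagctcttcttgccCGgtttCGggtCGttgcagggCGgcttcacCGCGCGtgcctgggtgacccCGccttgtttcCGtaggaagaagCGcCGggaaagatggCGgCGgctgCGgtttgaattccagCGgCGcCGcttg
Hs2st1, chr3:144570167-144570466, minus strand: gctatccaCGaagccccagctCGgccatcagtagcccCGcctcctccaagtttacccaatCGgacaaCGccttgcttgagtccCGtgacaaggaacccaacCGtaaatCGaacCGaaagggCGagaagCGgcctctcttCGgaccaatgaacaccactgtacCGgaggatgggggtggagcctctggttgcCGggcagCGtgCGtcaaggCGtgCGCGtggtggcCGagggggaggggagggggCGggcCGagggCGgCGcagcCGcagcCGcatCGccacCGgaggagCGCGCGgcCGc
Sarm1, chr11:78497705-78498004, minus strand: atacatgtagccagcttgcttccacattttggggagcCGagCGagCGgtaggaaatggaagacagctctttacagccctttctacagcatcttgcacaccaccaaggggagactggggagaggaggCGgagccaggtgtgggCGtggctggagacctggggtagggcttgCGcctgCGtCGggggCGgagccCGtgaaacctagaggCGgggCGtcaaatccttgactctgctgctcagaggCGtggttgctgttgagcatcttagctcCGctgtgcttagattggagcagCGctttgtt
Shoc2, chr19:53944056-53944355, plus strand: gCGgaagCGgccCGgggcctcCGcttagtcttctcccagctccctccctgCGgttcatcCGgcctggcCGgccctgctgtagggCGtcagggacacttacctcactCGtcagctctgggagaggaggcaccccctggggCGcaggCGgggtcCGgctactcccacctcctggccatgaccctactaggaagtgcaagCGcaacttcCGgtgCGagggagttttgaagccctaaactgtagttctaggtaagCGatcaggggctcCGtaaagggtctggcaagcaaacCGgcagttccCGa
Bbip1, chr19:53944578-53944877, minus strand: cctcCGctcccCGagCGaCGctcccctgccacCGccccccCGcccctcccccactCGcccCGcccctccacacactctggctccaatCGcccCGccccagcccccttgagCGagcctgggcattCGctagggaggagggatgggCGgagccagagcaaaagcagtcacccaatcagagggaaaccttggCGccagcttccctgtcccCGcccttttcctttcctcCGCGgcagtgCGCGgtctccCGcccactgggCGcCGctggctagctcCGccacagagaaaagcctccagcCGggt
Oca2, chr7:56239509-56239808, plus strand: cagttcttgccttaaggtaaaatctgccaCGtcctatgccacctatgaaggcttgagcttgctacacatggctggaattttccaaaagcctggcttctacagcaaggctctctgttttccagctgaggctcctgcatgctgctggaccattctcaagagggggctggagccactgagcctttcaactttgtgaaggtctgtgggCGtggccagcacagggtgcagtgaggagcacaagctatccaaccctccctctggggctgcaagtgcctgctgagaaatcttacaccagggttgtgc
Nt5e has 23 CG in this window, Cdk5rap2 28, Hs2st1 32, Sarm1 15, Shoc2 19, Bbip1 24 and Oca2 2. Among the 16457 promoters matched to genes on chromosomes 1 to 19 the median was 14, and 95.0% held at least 1 CG. The motif TATAAA, searched on both strands, was in none of these 7 windows and in 13.5% of all promoters of this length. No match says only that these letters are absent from the window.

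Gene starts were the richest part of the genome in break ends, and they were less rich in the Cd73 high libraries. Within 1 kb of 16457 starts the negative libraries had 1813 and 2162 break ends per 1000000 of the library and per Mb of window (EPM per Mb). The mid libraries had 1458 and 1924, and the high libraries 1488 and 1363. Both high libraries were thus below both negative libraries, while mid M1 lay between the high libraries and mid M2 between the negative libraries. The mean of the high libraries was 0.717 of that of the negative ones (1426 ± 88.3 against 1988 ± 247, SD, n = 2 each), a log2 ratio of -0.48. The exact two-sided permutation p was 0.33, the smallest that 2 against 2 libraries allow. High M1 stood at 0.821 of negative M1, and high M2 at 0.631 of negative M2.

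Gene ends, measured in windows of the same width, differed less. They had 587 and 650 EPM per Mb in the negative libraries, 555 and 621 in the mid, and 563 and 538 in the high, a log2 ratio of high over negative of -0.17 (exact permutation p = 0.33). The high libraries were again below both negative ones, but with each position counted once the groups overlapped (552 and 597 against 557 and 533, log2 ratio -0.08). The difference in means, -68.5 EPM per Mb, ran from -37.3 without negative M2 to -99.7 without negative M1.

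**Figure D1:**
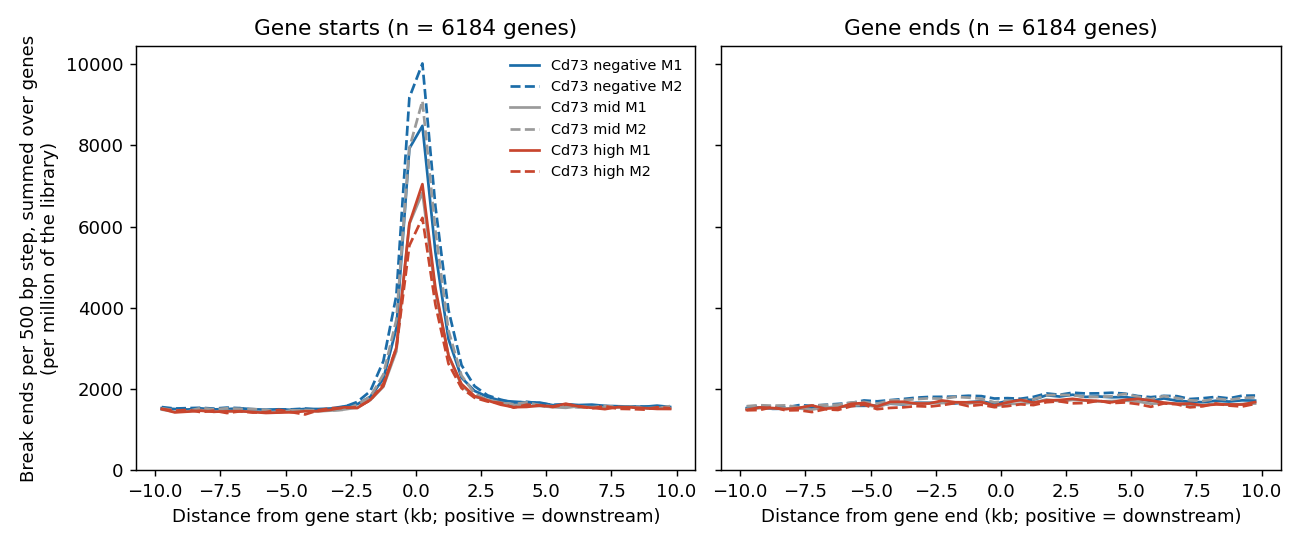
Break ends of each library per 500 bp step (per 1000000 of the library, summed over 6184 genes longer than 20 kb that overlap no other gene) against distance in kb from the gene start (left) and gene end (right). All 6 libraries peak just downstream of the start, from 6213 in Cd73 high M2 to 10014 in Cd73 negative M2, and no such peak stands at the gene end.

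Break ends peaked in the same step in all sorts, at different heights. In 6184 genes longer than 20 kb that overlap no other gene, the step with most break ends was centred 250 bp downstream of the start in each of the 6 libraries. Its height was 8478 and 10014 EPM in the negative libraries, 6831 and 9093 in the mid, and 7044 and 6213 in high. At 9 to 10 kb from the start the libraries lay between 1488 and 1552 EPM per step, so the levels came together away from the start. The ratio of the 1 kb around the start to this flank was 5.30 and 6.18 in the negative, 4.31 and 5.58 in the mid, and 4.41 and 3.88 in the high libraries. The groups did not overlap (exact permutation p = 0.33), and mid M1 again lay among the high libraries.

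How the break ends were counted mattered to this difference. At equal depth the start level was 1832 and 2163 EPM per Mb in the negative against 1489 and 1363 in the high libraries. At equal depth with each position counted once it was 1682 and 1962 against 1408 and 1299, a log2 ratio of -0.43. With each position counted once at full depth it was 1320 and 1522 against 1397 and 1299, so that the groups overlapped and the log2 ratio was -0.08. That count caps every position at 1 and so removes more from the deeper libraries.

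The log2 ratio was nearest 0 at starts with few CG in their promoter. Genes were split into 4 classes of equal size by CG count. In the class with fewest CG (median 2), start windows had 393 and 405 EPM per Mb in the negative and 376 and 376 in the high libraries, a log2 ratio of -0.09. In the next class (median 8) the log2 ratio was -0.41, in the third (median 19) -0.54, and in the class with most CG (median 32) -0.51. In that last class the values were 2919 and 3460 in the negative, 2280 and 3074 in the mid, and 2385 and 2081 in the high libraries. The high libraries lay below both negative libraries in each class. Ends of the same genes had log2 ratios of -0.06, -0.18, -0.21 and -0.18 in the same order. With each position counted once, the log2 ratios at starts were -0.04, -0.11, -0.08 and -0.06. The groups then overlapped in every class but that with fewest CG. At equal depth with each position once the ratios at starts were -0.08, -0.38, -0.47 and -0.47, without overlap. Whether the classes differ from each other was not tested, and their start levels differ too, from 399 to 3189 EPM per Mb in the mean of the negative libraries.

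**Figure D2:**
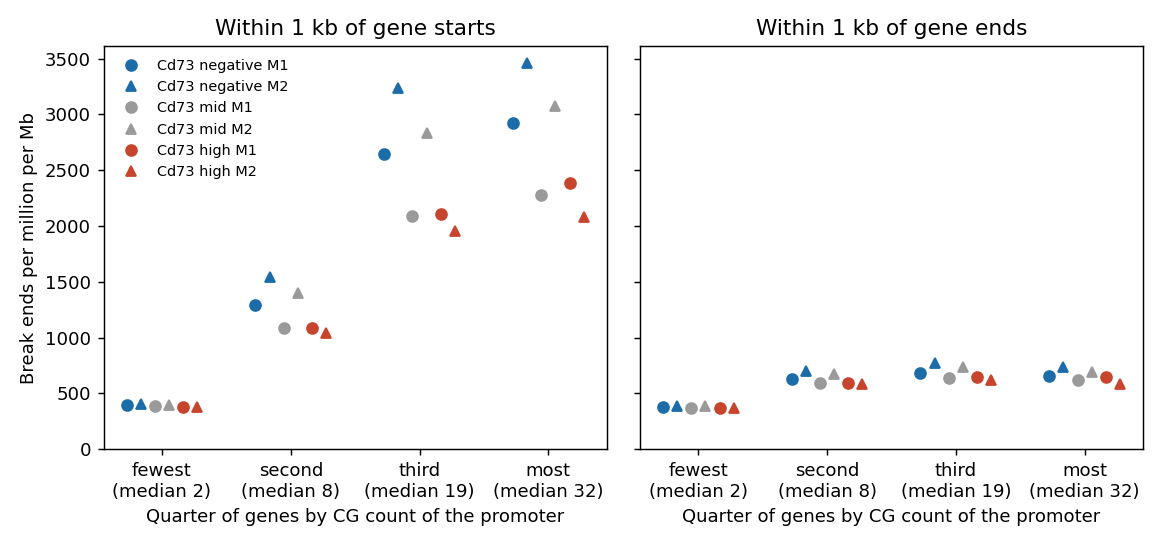
Break ends per 1000000 of the library and per Mb within 1 kb of gene starts (left) and gene ends (right), for 16457 genes in 4 classes by the number of CG in their promoter; each point is 1 library. Start levels climb with CG count in every library, and the high libraries lie below the negative ones in each class, with means of 2030 against 2944 in the third and 2233 against 3189 in the class with most CG.

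Start windows were then tested gene by gene. Relative to the whole library, 84% of the 10454 start windows tested (of 16457, after the filter on low counts) had a log2 fold change below 0, with a median of -0.50, against 62.4% and a median of -0.23 for 3227 gene ends. Both high libraries were below both negative ones in 5274 starts (50.4% of those tested) and above both in 416 (3.98%). For gene ends these shares were 29.3% and 14.4%. Called starts numbered 4, all lower (0.0383% of those tested; quasi-likelihood test of edgeR at a Benjamini-Hochberg threshold of 0.05). With TMM scaling, which sets the bulk of the starts to no change, the median was 0.00 and 0 were called by edgeR (315 higher and 322 lower at an unadjusted p under 0.05), so the 4 calls are relative to the library and not to other starts. Their log2 fold changes with TMM scaling were -2.03 (Hs2st1), -3.59 (Sarm1), -3.54 (Bbip1) and -2.83 (Shoc2), at edgeR adjusted p of 0.480 to 0.495.

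The 4 called starts held few break ends in the high libraries. Hs2st1 (gene 23908, start of the gene on the minus strand of chromosome 3) had 150 and 171 break ends in the negative, 32 and 66 in the mid, and 3 and 3 in the high libraries. Its level was 12.9 ± 1.51 EPM in the negative and 2.22 ± 0.282 in the high libraries (n = 2 each; log2 fold change -2.53, SE 0.57, adjusted p = 0.0468). Sarm1 (gene 237868, chromosome 11) had 79 and 83 break ends in the negative, 18 and 28 in the mid, and 0 and 1 in the high libraries, a ratio of high to negative level of 0.0566 (95% counting interval 0.00143 to 0.320, exact). Shoc2 (gene 56392, chromosome 19) had 80 and 109, then 36 and 40, then 1 and 1, a ratio of 0.0971 (0.0117 to 0.356). Bbip1 (gene 100503572, chromosome 19) had 62 and 95, then 31 and 35, then 0 and 1, a ratio of 0.0584 (0.00147 to 0.330). Shoc2 and Bbip1 start 321 bp apart on opposite strands, so their windows overlap, share break ends and are not separate results. Adjusted p was 0.0468 for each of the 4 windows. None of them was called when any 1 of the high or negative libraries was left out, at equal depth, with each position counted once or with a replicate block (0 starts called in each).

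Over gene bodies, 1 of the 17238 genes tested passed (0.0058%), Cdk5rap2, and 1503 (8.72%) had an unadjusted p under 0.05, of which 772 (4.48% of genes) were higher and 731 (4.24%) lower. Cdk5rap2 (gene 214444, chromosome 4, 70216855 to 70410435, 193.6 kb) had 209 and 190 counts per 1000000 of the scaled sum over gene bodies (CPM) in the negative, 259 and 228 in the mid, and 307 and 346 in the high libraries. It rose by 0.71 on the log2 scale (SE 0.13, edgeR adjusted p = 0.00209). The level followed the order of the sort without overlap between any groups. A single window of 1 kb inside the gene, 70378001 to 70379000, held 19.9% and 20.5% of its break ends in the negative, 26.7% and 33.1% in the mid, and 54.8% and 52.2% in the high libraries. Single positions of the gene held up to 151 of 1352 and 130 of 1241 break ends in the negative libraries. In the high libraries they held up to 33 of 221 and 31 of 203. How uniquely reads map in this window could not be examined without a genome. Outside this window the gene had 85.1 and 80.3 EPM in the negative and 67.3 and 78.2 in the high libraries, a log2 ratio of -0.19. Its start window, by contrast with those above, had 8.01 and 10.7 EPM in the negative and 6.73 and 9.67 in the high libraries, which overlap. The call was absent without negative M2 (adjusted p = 0.995), high M1 (0.185) or high M2 (0.781), and stood without negative M1 (0.0216). With each position counted once the log2 fold change of Cdk5rap2 was 0.18 (edgeR adjusted p = 0.992), and at equal depth it was 0.61 (adjusted p = 0.134).

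Nt5e (gene 23959, chromosome 9, 88327609 to 88372089, 44.5 kb) had 52.1 and 52.4 CPM in the negative, 73.4 and 70.1 in the mid, and 91.8 and 66.4 in the high libraries. Both negative libraries were lowest, and mid and high overlapped. The log2 fold change of high against negative was 0.62 (SE 0.19) with an edgeR adjusted p of 0.352, so Nt5e did not pass. The value was 0.35 without high M1 and 0.26 at equal depth. The 1 kb window from 88327001 to 88328000 spans the start, and only its part inside the gene was counted here. This part held 27.9% and 29.2% of the gene's break ends in the negative, 14.5% and 19.1% in the mid, and 16.7% and 7.69% in the high libraries. Outside it Nt5e had 19.1 and 19.8 EPM in the negative, 30.6 and 29.4 in the mid, and 37.0 and 29.0 in the high libraries, a log2 ratio of 0.76. Within 1 kb of the start the counts were 113 and 126 in the negative, 35 and 43 in the mid, and 15 and 5 in the high libraries, or 8.88 and 10.3, 7.54 and 8.54, and 10.1 and 4.03 EPM. The body outside the start was thus higher in both high libraries, while at the start itself the groups overlapped.

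The other gene bodies with the smallest p did not pass either, at adjusted p of 0.33 to 0.35. Those on the higher side ran from 7.85 kb to 301 kb in length. Among them were Nxph1, a neurexin ligand gene of 301 kb (196 and 180 CPM in the negative, 245 and 296 in the high libraries, log2 fold change 0.52, SE 0.13), and Oca2, of 297 kb (158 and 148 against 204 and 232, 0.51, SE 0.14). Gm12880, of unknown function, had 55.2 and 39.0 against 82.1 and 76.6 CPM. The 24.1 kb Keg1 had 18.5 and 14.7 against 45.9 and 20.4, with high M1 far above high M2. Serpinb1b (15.9 kb), of the serine protease inhibitor family, had 9.58 and 8.10 against 20.9 and 23.8. Zfp959 (7.85 kb), a zinc finger gene, had 4.64 and 5.35 against 11.1 and 22.1, and Bpifc (52.2 kb), of the lipid-binding BPI family, 51.9 and 43.9 against 66.8 and 88.6.

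On the lower side the 8 genes of smallest p were 15.6 kb or shorter. Inppl1, the SHIP2 phosphoinositide phosphatase, had 48.2 and 49.2 CPM in the negative and 22.3 and 25.5 in the high libraries (log2 fold change -1.04, SE 0.26), and Nans, a sialic acid synthase, 35.5 and 43.4 against 15.3 and 20.4 (-1.16, SE 0.29). Hnrnpk, an RNA-binding protein gene, had 36.9 and 33.8 against 15.3 and 15.3, and Gpt, an alanine aminotransferase of amino acid metabolism, 19.2 and 20.9 against 6.95 and 5.11. Ddn, Phospho1, Adat3 and Kctd12 completed the 8, with log2 fold changes of -1.19, -1.06, -1.15 and -1.69. High and negative libraries did not overlap in any of the 16, which was a condition of naming them, and among all genes tested 42% did not overlap (20.7% higher and 21.3% lower). Inppl1, Phospho1, Hnrnpk and Adat3 overlap another gene, so their break ends cannot be assigned to them alone.

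Gene length ran with the direction of the difference. Tested genes were split by length into 4 classes of equal size. The log2 fold change had a median of -0.20 in the shortest (5.50 kb at the median), where 2877 of 4309 were negative. It was -0.06 and 0.00 in the next classes and 0.09 in the longest (106 kb at the median), where 3003 of 4310 were positive. Of 533 genes of 300 kb or more, 506 were positive (median 0.20) and 176 were higher at an unadjusted p under 0.05 (33.0%), against 0 lower. Of 1896 genes of 5 kb or less, 174 were lower at that p (9.18%) and 23 higher (1.21%). Summed over all genes in such classes, and unscaled, the shortest had 959 and 1164 EPM per Mb in the negative and 862 and 792 in the high libraries (log2 ratio -0.36), and the longest 462 and 455 against 457 and 452 (-0.01, overlapping). The size of the length pattern depended on the counting and on the libraries. The median of the longest minus that of the shortest class, 0.30, was 0.06 with each position counted once, and 0.12 without negative M2 to 0.42 without negative M1. With each position counted once, the shortest class had 780 and 910 EPM per Mb against 831 and 770 (log2 ratio -0.08, overlapping), and at equal depth with each position once 917 and 1091 against 838 and 770 (-0.32). The part of the start windows in the length pattern was not tested.

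At gene borders, which pool starts and ends, 0 of 15918 passed (edgeR; 1000, or 6.28%, at an unadjusted p under 0.05, with 3.23% higher and 3.05% lower; DESeq2 also called 0 and had 490 at that p). The border with the smallest p was that of Shoc2, with 88.1 and 92.8 CPM of the border sum in the negative, 117 and 103 in the mid, and 17.7 and 11.3 in the high libraries. The log2 fold change was -2.59 (SE 0.60, edgeR adjusted p = 0.635), and the high counts were 2 and 1. Ivd, the isovaleryl-CoA dehydrogenase of leucine breakdown, had 119 and 121 against 53.0 and 11.3 CPM, Raver1, a splicing cofactor gene, 152 and 160 against 61.8 and 45.2, and Pcid2, of the TREX-2 mRNA export complex, 217 and 226 against 106 and 90.4. Higher borders were those of Spring1, a regulator of SREBP cleavage (94.3 and 104 against 247 and 192), Elk3, an ETS factor gene (56.4 and 43.7 against 159 and 102) and the cytokine gene Osm (37.0 and 49.1 against 133 and 90.4). Serpinb6b (15.0 and 9.36 against 88.3 and 33.9, from 10 and 3 break ends in the high libraries) passed the filter on low counts only through the high libraries, so that it had to be higher to be tested. High counts at these 8 borders ran from 1 to 28 break ends. Their groups were chosen not to overlap, as 41.4% of all borders did not (19.6% higher, 21.8% lower). The gene bodies of Spring1, Elk3, Shoc2 and Pcid2 overlap another gene. Whether the border windows of the other named genes reach into another gene was not examined. The share of all break ends at gene borders was 8.24% and 9.59% in the negative, 6.98% and 8.70% in the mid, and 7.06% and 6.59% in the high libraries (exact permutation p = 0.33).

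Among 100 kb bins, 6 of 23606 passed (0.0254%), all higher in the high libraries. At an unadjusted p under 0.05, 5.08% of bins were higher and 5.41% lower. The bin on chromosome 4 from 70300001 lies within Cdk5rap2 and had 63.2 and 61.2 CPM in the negative, 83.2 and 82.0 in the mid, and 119 and 127 in the high libraries (log2 fold change 0.98, SE 0.17, edgeR adjusted p = 0.00308). The same 1 kb window of Cdk5rap2 held 68.0% and 66.7% of its break ends in the high and 33.5% and 34.6% in negative libraries. Without the window the bin had 42.0 and 39.1 EPM in the negative and 38.4 and 42.7 in the high libraries, which overlap. The other 5 hold no protein-coding gene body.

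The called bins with the largest fold changes had break ends piled up at single positions. Chromosome 14 from 19400001, which holds the pseudogene Gm9637 and the lncRNA gene Gm41101, had 95.2 and 106 CPM in the negative, 116 and 170 in the mid, and 270 and 291 in the high libraries (1.48, SE 0.28, adjusted p = 0.0132). Chromosome 9 from 3000001, which holds the microRNA gene Mir101c, had 101 and 108, then 119 and 160, then 242 and 299 CPM (1.37, SE 0.27, adjusted p = 0.0222). The counts at single positions that follow are not scaled for depth. On chromosome 14 the 1210 and 1276 break ends of the negative libraries sat on 428 and 432 positions, with up to 118 at 1 position. The 404 and 366 break ends of the high libraries sat on 235 and 228 positions, with up to 15 at 1 position. On chromosome 9 the 1285 and 1296 break ends of the negative libraries sat on 454 and 437 positions, with up to 126 at 1 position. The 362 and 375 of the high libraries sat on 214 and 189 positions, with up to 22 at 1 position. Both bins also passed at equal depth with each position counted once, at 1.46 and 1.25, where the other 4 did not. Without their fullest 1 kb window the log2 ratios were 1.60 and 1.43. How uniquely reads map there could not be examined without a genome.

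The remaining 3 bins had lower levels, with at most 27 break ends at 1 position in the negative and 11 in the high libraries, not scaled for depth. Chromosome 1 from 31300001 had 25.8 and 25.4 CPM in the negative, 28.3 and 26.0 in the mid, and 47.4 and 42.2 in the high libraries (0.81, SE 0.16, adjusted p = 0.0132). Chromosome 12 from 48900001, with 3 pseudogenes, had 28.0 and 28.6, then 31.1 and 32.0, then 45.4 and 50.2 (0.75, SE 0.15, adjusted p = 0.0222). Chromosome 9 from 3200001 had 18.6 and 20.1, then 23.6 and 21.0, then 36.7 and 32.6 (0.85, SE 0.18, adjusted p = 0.0458), and 0.56 without its fullest 1 kb window. None of the 6 bins passed when any 1 of the 4 libraries was left out, although their directions held in each case. DESeq2 called 5 of the 6, without the last.

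**Figure D3:**
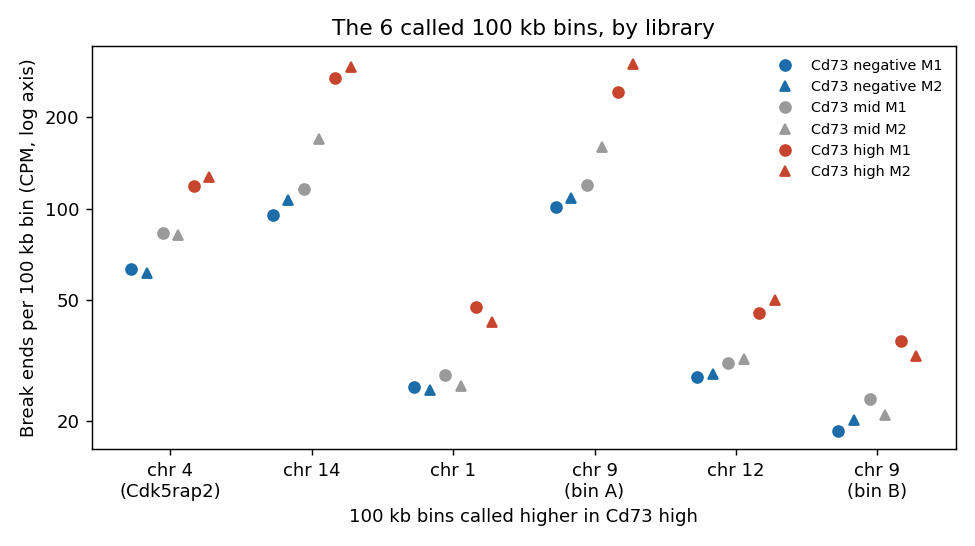
Break ends (CPM, log axis) of each library in the 6 called 100 kb bins, ordered by adjusted p; on chromosome 9, bin A is the bin from 3000001 and bin B that from 3200001. In every bin both high libraries lie above both negative and both mid libraries, for example 119 and 127 against 63.2 and 61.2 for the Cdk5rap2 bin.

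No bin passed as lower. Groups did not overlap in 46.1% of bins (22.4% higher, 23.6% lower), and not overlapping was a condition of naming the following. The 5 of smallest p on that side were the bins on chromosome 8 from 41200001 (Fgl1 and Pcm1), chromosome 2 from 29000001 (Cfap77 and Ttf1), chromosome 6 from 141200001 (Pde3a), chromosome 4 from 97700001 (Nfia) and chromosome 5 from 9000001. The first had 55.1 and 55.5 CPM in the negative, 56.6 and 59.4 in the mid, and 34.0 and 34.2 in the high libraries (-0.70, SE 0.15, adjusted p = 0.0653). The others had log2 fold changes of -0.66 to -0.69 and adjusted p of 0.0896 to 0.123. In the Nfia bin, whose gene encodes a nuclear factor I transcription factor, the values were 68.1 and 66.5 against 40.7 and 43.0 CPM.

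With all break ends counted, the high libraries were more even across 100 kb bins than the negative ones. Bins were ranked by their break ends in the mid libraries, which are not part of the comparison, and split into 10 classes of equal size. Log2 levels of bins in the mid libraries correlated at 0.956 to 0.975 with the negative and at 0.902 to 0.921 with the high libraries. The ranking is thus closer to the negative libraries, and the part of this in the pattern was not tested. In the sparsest class the high libraries had 181 and 188 EPM per Mb against 167 and 166 in the negative, a ratio of 1.11. In the densest class they had 721 and 702 against 762 and 848, a ratio of 0.884. The ratio stayed near 1.11 over the 3 sparsest classes and was lower in each class after that, reaching 1.003 in the seventh, the only one in which the groups overlapped. The median log2 fold change of tested bins was 0.11 in the sparsest class, with 1421 of 2079 positive, and -0.22 in the densest, with 2231 of 2392 negative. With each position counted once, the difference between those medians was -0.13 in place of -0.33. In that count the groups overlapped in the sixth, seventh and densest classes. The densest had 689 and 751 EPM per Mb in the negative and 700 and 686 in the high libraries (ratio 0.963). At equal depth with each position once the densest class did not overlap (ratio 0.890).

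**Figure D4:**
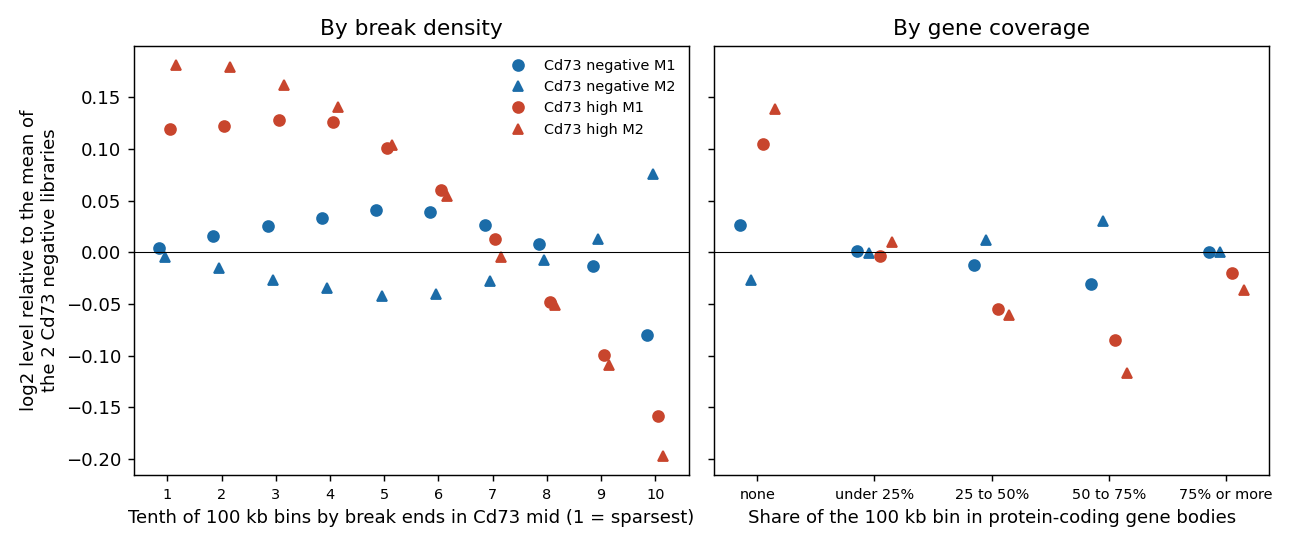
Level of each Cd73 high and negative library relative to the mean of the negative libraries (log2) in 100 kb bins, in 10 classes by break ends in the Cd73 mid libraries (left) and by the share of the bin in protein-coding gene bodies (right). Both high libraries lie above the negative ones in the 6 sparsest classes and below them in the 3 densest.

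Gene-free regions lay on the higher side. Bins with no protein-coding gene body had 318 and 307 EPM per Mb in the negative and 336 and 344 in the high libraries (ratio 1.09). The ratio did not go down steadily with gene coverage: it was 1.002 in bins covered under 25%, where the groups overlapped, 0.961 at 25 to 50%, 0.933 at 50 to 75% and 0.981 at 75% or more. Of all break ends, 26.7% and 25.7% of the negative, 28.1% and 26.7% of the mid, and 28.2% and 28.9% of the high libraries fell in gene-free bins. Gene bodies held 49.7% and 50.7% of negative, 48.6% and 49.8% of mid, and 48.5% and 47.7% of high libraries. For both shares the high and negative groups did not overlap (exact permutation p = 0.33). By chromosome, both high libraries had a larger share than both negative ones on 6 of 19 (31.6%) and a smaller one on 5 (26.3%). Chromosome 14 (ratio 1.03) and chromosome 1 (1.02) were highest, and chromosomes 19 (0.963), 11 (0.967) and 17 (0.973) lowest.

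In 17 gene lists of enterocyte functions, other cell types and gene classes, no member passed (edgeR; DESeq2 called 1 gene, Cdk5rap2, which is in none), so the lists are given as counts beside the 8422 positive (48.9%) and 8816 negative (51.1%) genes tested (median -0.01). Nutrient absorption genes were negative in 27 of 35 (median -0.22; 7 lower and 1 higher at an unadjusted p under 0.05, where 4.24% and 4.48% of all genes were). Among them were the sugar transporter genes Slc2a5, for fructose (46.5 and 49.5 CPM in the negative, 29.2 and 27.2 in the high libraries), Slc2a2 (log2 fold change -0.61, SE 0.24) and Slc5a1 (-0.39, SE 0.17), the disaccharidase Sis (-0.45, SE 0.18) and the peptidase Anpep (-0.52, SE 0.23). Fabp1, a fatty acid carrier, was on the other side (9.12 and 7.03 against 15.3 and 20.4). Enterocyte identity genes were negative in 24 of 29 (median -0.14) and immediate early genes in 25 of 32 (-0.27). The latter are short (5.14 kb at the median), and of all tested genes of 5 kb or less only 557 of 1896 were positive (29.4%, median -0.28), so their count is close to that of short genes. Villus tip genes, to which Nt5e belongs, split 8 positive to 6 negative (0.09), with 3 higher and 2 lower at an unadjusted p under 0.05. The 3 were Nt5e, Apoa4, of chylomicrons (0.79, SE 0.40), and Pkib (0.35, SE 0.18). The 2 were Klf4 (-0.99, SE 0.34) and Slc28a1 (-0.46, SE 0.21). Apob and Apoc3, of the same list, had 0.04 (SE 0.20) and -1.03 (SE 0.73). Crypt stem cell genes split 8 to 8, and proliferation genes 14 to 16. Of the latter, Mcm7, of the replicative helicase, had 29.1 and 29.0 CPM against 11.1 and 15.3 (-1.15, SE 0.34). The body of Mcm7 overlaps a second gene, to which part of this signal may belong. Cdc6, which loads the helicase, had 21.3 and 24.8 against 12.5 and 13.6 (-0.82, SE 0.36). Both were named for having the smallest p of the proliferation list. The median of its 30 genes was -0.03, with 3 lower and 0 higher at an unadjusted p under 0.05. Atf3, a stress-induced transcription factor of the immediate early list, had 33.5 and 30.9 against 22.3 and 13.6 (-0.81, SE 0.30).

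Lists on the positive side were the 30 common fragile site genes (30 positive, median 0.23, 13 higher at an unadjusted p under 0.05), the 25 neuronal genes (25, 0.28, 15 at that p) and tuft cell genes (12 of 14, 0.25). Fragile site and neuronal genes are long, with median lengths of 1217 kb and 460 kb, and their counts are to be read beside all genes of 300 kb or more, of which 506 of 533 were positive and 33.0% higher at that p. Of the remaining lists, stromal and endothelial genes were positive in 7 of 17 and enteroendocrine in 6 of 16. In 6 lists only some members passed the filter on low counts, 82 of 1104 for olfactory receptor genes, so these are given by the level summed over all members, tested or not. Olfactory receptor genes had 262 and 256 EPM per Mb in the negative and 299 and 282 in the high libraries (log2 ratio 0.17). Villus bottom antimicrobial genes had 654 and 646 against 558 and 527 (-0.26), and ribosomal protein genes, which are short (3.18 kb at the median), 1251 and 1420 against 1163 and 1059 (-0.27). Lymphocyte genes (504 and 490 against 561 and 490), goblet cell genes (427 and 487 against 447 and 411) and Paneth cell genes (373 and 326 against 359 and 370) overlapped between the groups. Of the 18 lymphocyte genes tested, of 20, 16 were positive and 2 negative (median 0.22). Of the 8 goblet cell genes tested, of 11, 3 were positive and 5 negative. Muc2, the main mucin of goblet cells, had 18.8 and 17.6 CPM against 30.6 and 27.3 (0.67, SE 0.30). Atoh1, of the same list, had 9.89 and 11.8 against 8.35 and 3.41 (-0.82, SE 0.53). Dclk1, a tuft cell kinase that is also a long gene (297 kb), had 219 and 204 against 262 and 284 (0.36, SE 0.13).

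**Figure D5:**
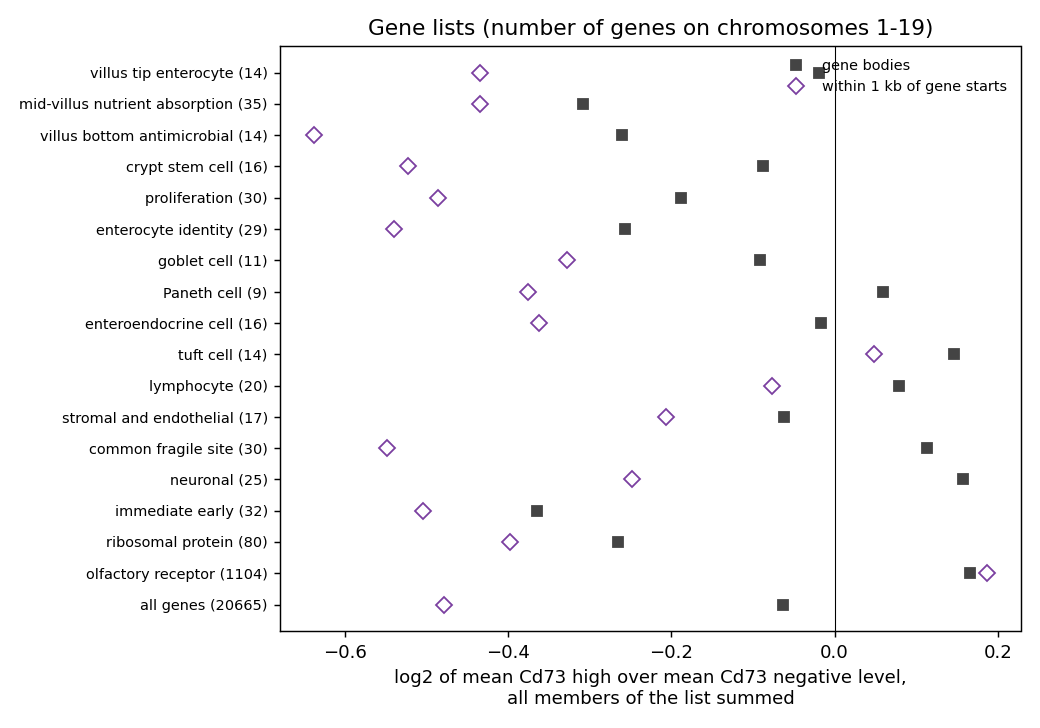
For each gene list and for all genes, the log2 ratio of mean Cd73 high to mean Cd73 negative level, summed over all members on chromosomes 1-19, for gene bodies (squares) and for windows within 1 kb of gene starts (diamonds). Starts lie below 0 in all lists but tuft cell and olfactory receptor genes, and bodies lie above 0 for common fragile site, neuronal, tuft, lymphocyte, Paneth and olfactory receptor genes.

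Bodies and starts of the same genes could lie on opposite sides. Common fragile site genes, which host late-replicating breakage, had 348 and 328 EPM per Mb over their bodies in the negative and 365 and 366 in the high libraries (log2 ratio 0.11). At their starts they had 1835 and 2222 against 1416 and 1357 (-0.55). Cdh13, a cadherin gene of 1185 kb, had 766 and 639 CPM over its body in the negative and 987 and 926 in the high libraries (log2 fold change 0.45, SE 0.13, edgeR adjusted p = 0.352). Rbfox1, a splicing factor gene, had 983 and 850 against 1163 and 1192 (0.36, SE 0.13, adjusted p = 0.415). Over all genes, starts were at -0.48 and bodies at -0.06.

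Start levels differed widely between lists. Per Mb, the starts of immediate early genes had 3216 and 4243 EPM in negative libraries, proliferation genes 3155 and 3622, ribosomal protein genes 2624 and 3155, nutrient absorption genes 2235 and 2484, and enterocyte identity genes 1985 and 2205. Lymphocyte genes had 594 and 596, Paneth genes 505 and 430, and olfactory receptor genes, silent outside the nose, 274 and 258. In high libraries the starts of enterocyte identity genes had 1186 and 1696 (log2 ratio -0.54), those of nutrient absorption genes 1760 and 1732 (-0.43) and those of villus tip genes 1529 and 1611, against 1970 and 2274 (-0.43). Lymphocyte starts had 553 and 575 (-0.08) and tuft cell starts 948 and 732, against 764 and 862 (0.05, overlapping). Over the 6 lists of other cell types, start levels in the negative libraries ran from 430 to 1190, below the 1813 and 2162 of all genes, and the part of such cells in the differences above was not tested.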

How the data were processed

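DNA break ends of 6 mouse enterocyte libraries (Cd73 negative, mid and high, 2 each) were analysed. Libraries were made by adapter ligation and in vitro transcription, per the labels' protocols. BWA and GRCm38 are named in the submitters' processing notes; mapping filters are not stated there. The deposited files give a count of break ends per position for each library alone, not normalised and without strand; whether counts are of unique molecules is not stated, so intervals cover counting error only.

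Counts on chromosomes 1 to 19 were summed over protein-coding gene bodies (20665 in RefSeq GRCm38.p6, 17238 tested; 3707 overlap another), gene borders and 100 kb bins (24618), and tested with edgeR 4.0.16 under R 4.3.3 (quasi-likelihood test after TMM scaling and filterByExpr, 6 libraries in 3 groups without a block, contrast high minus negative, Benjamini-Hochberg adjusted p under 0.05). Values relative to the whole library (EPM) are not TMM-scaled: whole library scaling moved the median log2 fold change to -0.13 for genes, -0.38 for borders and 0.03 for bins, so tested changes are relative to the TMM scaling. Gene strand and starts came from the promoter table for 16457 genes, of whose starts 14811 lie within 1 kb of the annotated end.

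Named features were Nt5e, called features, those of smallest p whose groups did not overlap (8 genes, 4 borders and 5 bins per direction in all) and the 2 members of smallest p of each list, some of which are not printed. Slc2a2, Slc5a1, Sis, Anpep, Apoa4, Pkib, Slc28a1, Apob and Apoc3, the start windows and the 1 kb windows were added after values were seen. The comparison, lists and most tests were chosen with earlier results of these data known. Two-sided exact permutation tests compared values with 1 number per library. Alternatives were DESeq2 1.42.0, other scalings, no filter, each position once, thinning (seed 20), 4 libraries only, a replicate block, other feature widths and each library left out. Counts for this contrast were also simulated, with the same dispersion for all features of a kind. Features with wider spread or with piled-up positions were not simulated, so recovery for these is not known. On the simulated counts, 12%, 66%, 78% and 90% of changed genes were recovered at 1.5, 2, 3 and 4-fold (14 false calls among 17238). For borders 0%, 14%, 38% and 58% were recovered (1 among 15918), and for bins 34%, 98%, 98% and 100% (8 among 23606). Summaries used Python 3.11.15, numpy 2.4.6, pandas 2.3.3 and scipy 1.17.1. The 4 libraries of a human cell line were not used.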

Additional observations from a re-analysis of the deposited data

Results flagged for a closer look

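Break ends outside chromosomes 1 to 19 entered no comparison. Mitochondrial DNA held 186 and 327 break ends per 1000000 of the whole file in the Cd73 high libraries, against 110 and 113 in mid and 89.4 and 55.4 in negative libraries. The X chromosome held 23943 and 24800 in high, 24315 and 23589 in mid, and 23671 and 23488 in negative libraries. Unplaced and other contigs held 1037 and 1225 in high, 753 and 895 in mid, and 650 and 721 in negative libraries. Each was above the control level in both high libraries, and no cause was tested.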

How the results depend on the processing

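A replicate block gave calls for 19 genes (18 higher), 0 borders, 10 bins (7 higher) and 0 starts. Over bins, the deviations of same-numbered libraries correlated at 0.351 for negative and mid but at -0.0149 for negative and high, the groups compared, and -0.00106 for mid and high, so the numbers were not taken as pairs. The count of called genes, 1 as reported, was 0 at equal depth, at equal depth with each position once, with no filter and with whole library scaling, and 0 to 2 with a library left out. Called bins, 6 as reported, were 16 with the 4 libraries only (11 higher, 5 lower) and 0 in each case with a library left out. Borders numbered 2 at equal depth. Called starts, 4 as reported, were 10 with the 4 libraries only and 0 with each position once, at equal depth, at equal depth with each position once, and with any library left out. With each position once, high minus negative was -0.385 points for the border share (-2.08 as reported), -1.0 for the gene body share (-2.10), 1.05 for gene-free bins (2.31), -73.3 for start level in EPM per Mb (-562) and -0.0645 for the ratio of start to flank (-1.60), and the densest minus the sparsest class of bins was -0.13 (-0.33). Directions turned for Cdk5rap2 (-0.19) and its bin (-0.00013) without the 1 kb window, for Lyz1 (-0.51 without high M2, 1.34 without high M1) and for Tek (-0.16 without high M1, 0.42 without high M2), neither of which passed in any setting; no other cause was tested. Over 68 named features, 857 values kept direction and side of the threshold, 45 no longer passed and 17 newly passed. Depth limits the comparison most in the high libraries, where borders hold few break ends.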
